A study of Rattus norvegicus with 150 samples.

Results

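Gastrocnemius muscle that had carried cobalt (Co) cylinders for 12 months was compared with gastrocnemius muscle that had carried tantalum (Ta) cylinders for the same time. The 16 RNA-seq libraries labelled Co or Ta at 12 months, 8 of each, were taken from the 150 libraries of the series. The rats were male Sprague-Dawley animals, bought at an age of about 30 days and left to acclimate before surgery. Each rat of every group received 4 metal cylinders of 1 mm diameter and 2 mm length, 2 in the calf muscle of each hind limb. The Ta rats were the surgical sham, so they too carried an incision, a wound and a foreign object, and the groups differ by the metal. Muscle with a metal labelled P and with depleted uranium (DU) at 12 months, 8 libraries each, and Co and Ta muscle at 1, 3 and 6 months served for comparison. These earlier groups hold 8 libraries each, apart from 7 for Ta at 1 month and 7 for Co at 6 months. The design text names lead among the sequenced metals, and P is kept as the labels write it. Although 8 rats per group were planned, the labels do not say which rat a library came from, and the p-values below therefore measure variation among libraries.

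Tantalum is a metal that corrodes very little in tissue and is widely used in implants. Cobalt releases ions in body fluid, and these ions block the oxygen-sensing prolyl hydroxylases, so that hypoxia-inducible factors are stabilised even where oxygen is present. Around an embedded solid, macrophages gather and can fuse into giant cells, and fibroblasts lay down a capsule. The libraries are bulk RNA from muscle, in which muscle fibres lie beside vessel, nerve, connective tissue and immune cells. Fewer cells of a type and less RNA per cell cannot be told apart in such libraries.

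Total counts of the 16 libraries ran from 14242417 to 18169055, and 21565 of the 32545 tabulated genes were counted at least once in them. The table gives genes by Ensembl identifier, and neither it nor the reference table used pairs these with names, so the genes below carry identifiers only. The labelled tissue was not checked against muscle markers, and the gene lists for hypoxia, inflammation, muscle and other processes were not analysed here. Levels are given as CPM, counts scaled to a common library total, with TMM factors that correct for differences in RNA composition. CPM is not divided by gene length, so levels are compared between groups and not between genes.

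One cobalt library stood apart from the others. Replicate 8 of Co at 12 months had a median correlation of 0.921 with the other 7 Co libraries over the log2 CPM of 12045 genes, whereas the other Co libraries had 0.957 to 0.972 and the Ta libraries 0.956 to 0.970. It had 12275 genes at or above 1 CPM, against 11136 to 11687 in the other Co libraries and 10929 to 11412 in the Ta libraries. Some of the values below are also given without it.

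At 12 months the muscle with cobalt differed little from the muscle with tantalum. In edgeR's quasi-likelihood test, 1 of 12045 genes (0.0083%) passed a Benjamini-Hochberg adjusted p of 0.05, and it was lower with Co. No gene was called higher. At an unadjusted p under 0.05 there were 1625 genes (13.5%), of which 709 (5.89%) were higher and 916 (7.6%) lower with Co. Differences over 2-fold were mostly rises, with 153 genes (1.27%) higher and 26 (0.216%) lower at an unadjusted p under 0.05. These 2-fold counts were not made without Co replicate 8. That library had 638 genes at 1 CPM or more and over 2-fold above every other Co and Ta library at 12 months. The median log2 fold change of all genes was 0.01 and the median standard error of a gene was 0.15. Without Co replicate 8 the edgeR test called 0 genes. It then gave 1525 genes at an unadjusted p under 0.05, 41.8% of them higher with Co, and a median log2 fold change of -0.006. Earlier in the series the same test called 0 of 12512 genes at 1 month, 801 of 12429 (6.44%) at 3 months and 0 of 12036 at 6 months, and 1820 (14.5%), 2976 (23.9%) and 818 (6.8%) had an unadjusted p under 0.05. The 801 calls at 3 months became 1 with the replicate number as a block. Same-numbered Co and Ta libraries deviated together at that time, though the labels state no pairing. Why the calls fell was not tested. At 12 months the number of calls depended on the tool and on single libraries. DESeq2 called 127 genes (44 higher, 83 lower) and limma voom with sample quality weights called 166 (73 higher, 93 lower). Leaving out 1 library at a time gave 0 to 14 calls with edgeR, and the count was 14, 13 and 2 when Ta replicate 3, 8 or 7 was dropped and 3 when Co replicate 1 was.

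The called gene, ENSRNOG00000009329, was lower with Co, and every cobalt library lay below every tantalum library. Its level in Co ran from 34.2 to 68.5 CPM with a median of 45.1, and in Ta from 68.8 to 121 CPM with a median of 89.9. The Co mean was 47.9 ± 11 CPM and the Ta mean 95.3 ± 18.5 CPM (n = 8 and 8, SD), which gave a log2 fold change of -0.99 with an SE of 0.14 (adjusted p = 0.0182, edgeR). The highest Co library and the lowest Ta library lay next to each other, at 68.5 and 68.8 CPM. This separation held with TMM-scaled CPM only. With CPM from plain library totals, 0 of the tested genes had every Co library below every Ta library. The log2 fold change stayed between -1.09 and -0.88 over 23 other fits, while the adjusted p rose to 0.0513, 0.0643 or 0.0621 when Ta replicate 4, 5 or 6 was dropped and to 0.0691, 0.0780 or 0.0525 when Co replicate 3, 6 or 8 was. It was 0.266 when all 150 libraries shared 1 model and 0.0668 when library totals replaced the TMM factors.

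The level of this gene with the other metals at 12 months lay near that with cobalt. The mean of ENSRNOG00000009329 was 50 ± 20.4 CPM in P muscle and 54.5 ± 16.5 CPM in DU muscle (n = 8 each, SD). Set directly against these groups, Co differed by a log2 fold change of -0.07 ± 0.21 from P (edgeR adjusted p = 0.953) and of -0.19 ± 0.18 from DU (edgeR adjusted p = 0.745). The mean with tantalum itself was not level over time and ran from 51.1 CPM at 1 month to 97.4 at 3 months, 48.6 at 6 months and 95.3 at 12 months. The cobalt means of this gene ran 67.3, 57.2, 51.5 and 47.9 CPM over the same times. Its log2 fold change of Co against Ta was accordingly 0.40 at 1 month, -0.75 at 3 months (edgeR unadjusted p = 0.0252, adjusted 0.147) and 0.07 at 6 months. At 12 months the Ta mean of ENSRNOG00000009329 thus stood above the means of Co, P and DU, a difference that was tested here for Co only.

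A further 3 genes had the smallest p-values in their direction and did not pass the adjusted test. ENSRNOG00000049105 ran from 4.54 to 10.9 CPM in Co with a median of 7.33, and from 1.27 to 4.56 CPM in Ta with a median of 2.41. The groups met at their edges, with the lowest Co library at 4.54 and the highest Ta library at 4.56 CPM, and otherwise did not overlap. The log2 fold change was 1.51 ± 0.25 (n = 8 and 8, SE, adjusted p = 0.0595 by edgeR). In 9 of 23 other fits its adjusted p fell under 0.05, among them DESeq2 (1.74e-05), limma voom (0.0022), and edgeR without Co replicate 1 (0.0336) or without Ta replicate 3 (0.0398), 7 (0.0282) or 8 (0.0294). P muscle held ENSRNOG00000049105 at 3.50 ± 1.09 CPM and DU muscle at 4.43 ± 2.06 CPM (n = 8 each, SD), and Co exceeded P by a log2 fold change of 1.08 ± 0.20 (edgeR adjusted p = 0.0555). At 1, 3 and 6 months the log2 fold change of Co against Ta was 0.64, 0.30 and 0.92, and none passed (edgeR adjusted p = 0.260, 0.361 and 0.975). The 6-month value came with 1 Co library at 61.4 CPM. The 6-month medians were 4.67 CPM with Co and 5.16 CPM with Ta.

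The second gene higher with cobalt, ENSRNOG00000057558, ran from 3.00 to 8.62 CPM in Co with a median of 4.59, and from 1.45 to 3.45 CPM in Ta with a median of 2.20. Of the 8 Co libraries, 7 lay above the highest Ta library. The log2 fold change was 1.13 ± 0.21 (n = 8 and 8, SE, adjusted p = 0.128 by edgeR). Its log2 fold change was 1.76 ± 0.48 at 3 months (n = 8 and 8, SE, adjusted p = 0.0362 by edgeR without a block), 1.22 at 1 month and 0.21 at 6 months. At 3 months the groups overlapped, with Co from 5.19 to 38.6 CPM (median 8.97) and Ta up to 9.45 CPM. At 1 month 1 Co library reached 27.6 CPM, and the medians were 4.02 CPM with Co and 3.37 CPM with Ta. ENSRNOG00000057558 passed at 12 months with DESeq2 (adjusted p = 0.00106), limma voom (0.0252) and edgeR without Ta replicate 8 (0.0319). The difference in ENSRNOG00000057558 between Co and DU at 12 months was -0.14 ± 0.34, with 1 DU library as high as 14.8 CPM.

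The second gene lower with cobalt, ENSRNOG00000047276, ran from 19.2 to 35.7 CPM in Co with a median of 27.6, and from 31.3 to 71.8 CPM in Ta with a median of 50.8. Ta replicate 3, at 31.3 CPM, lay within the Co range, and the other 7 Ta libraries lay above it. The log2 fold change was -0.93 ± 0.17 (n = 8 and 8, SE, adjusted p = 0.128 by edgeR). ENSRNOG00000047276 passed with DESeq2 (adjusted p = 0.000766), limma voom (0.0252) and edgeR without Ta replicate 3 (0.0165) or 8 (0.0294). The P and DU means were 32.6 ± 12.8 and 31.5 ± 21.1 CPM (n = 8 each, SD). At the 3 earlier times the log2 fold change of ENSRNOG00000047276 was negative as well, at -0.34, -0.21 and -0.36, and none of these passed the test (edgeR unadjusted p = 0.236, 0.557 and 0.171).

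**Figure D1:**
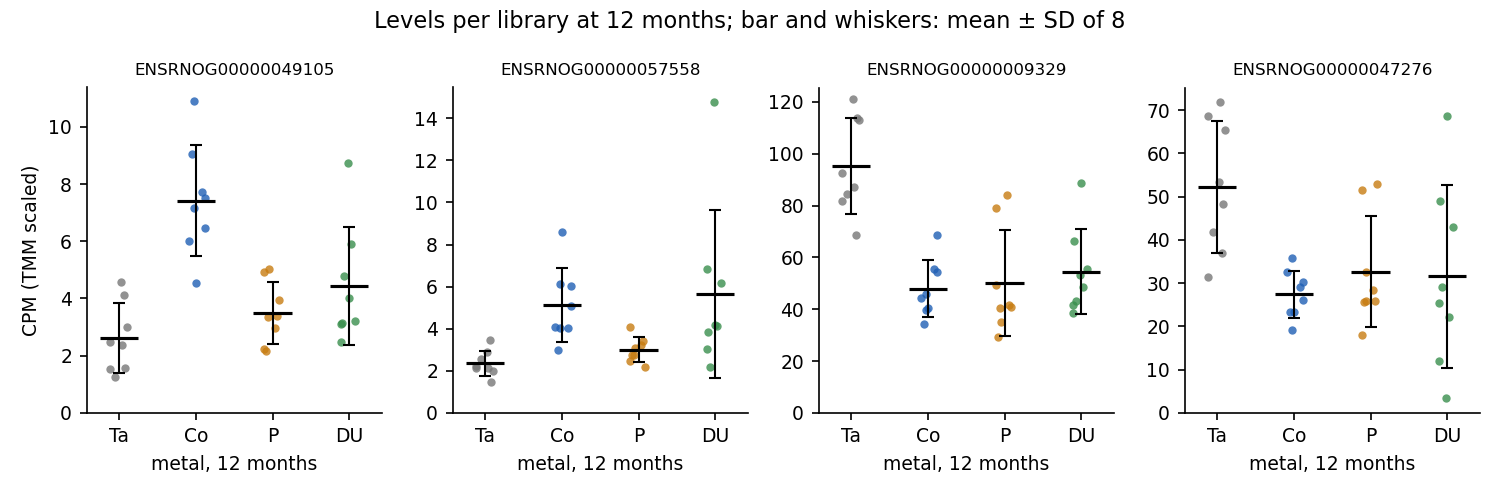
Level in TMM-scaled CPM (vertical axis, from 0) of the 4 genes at 12 months, with 1 point per library for Ta, Co, P and DU and bars for the mean ± SD of 8. For ENSRNOG00000009329 all 8 Co points lie below all 8 Ta points (highest Co 68.5, lowest Ta 68.8 CPM), and the P and DU means of 50 and 54.5 CPM lie near that of Co.

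**Figure D2:**
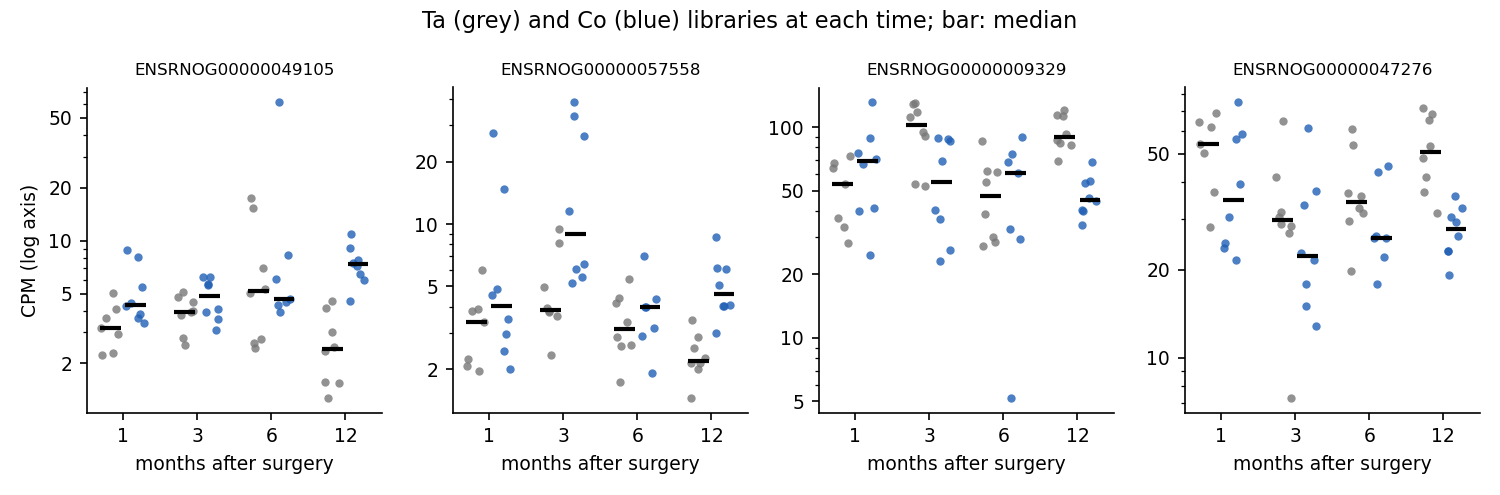
The same 4 genes in Ta (grey) and Co (blue) at 1, 3, 6 and 12 months, as CPM on a log axis with 1 point per library and a bar at the median. For ENSRNOG00000009329 the Ta libraries are high at 3 and 12 months (means 97.4 and 95.3 CPM) and lower at 1 and 6 months (51.1 and 48.6 CPM).

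Complete separation of the groups was rare. Among the 12045 genes tested, 2 (0.0166%) had all 8 Co libraries above all 8 Ta libraries and 2 (0.0166%) had all below. With CPM from plain library totals the counts were 10 higher (0.083%) and 0 lower. The scaling moved the direction of the small differences too. With library totals the median log2 fold change of all genes became 0.12, and 87.5% of the genes at an unadjusted p under 0.05 were higher with Co, against 43.6% with TMM factors, 45.9% with DESeq2's size factors, 55.6% with no filter on low counts and 62.8% with all 150 libraries in 1 model. The split between higher and lower genes among the small differences thus varied with the scaling, the filter and the model fitted. Why it varied was not tested.

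The direction of the differences varied with a gene's abundance. Of the 93 genes with a mean of at least 1000 CPM over the 16 libraries, 30 (32.3%) were lower with Co at an unadjusted p under 0.05 and 0 were higher, beside 7.6% lower among all genes. The median log2 fold change of these most abundant genes was -0.19. Of the 962 genes from 100 to 1000 CPM, 135 (14%) were lower and 57 (5.93%) higher, with a median log2 fold change of -0.04. The 5555 genes from 10 to 100 CPM had 571 lower (10.3%) and 237 higher (4.27%), with a median of -0.03. The balance turned among less abundant genes. The 4896 genes from 1 to 10 CPM had 376 higher (7.68%) and 175 lower (3.57%), with a median of 0.07, and the 539 genes tested under 1 CPM had 39 higher and 5 lower, with a median of 0.15. Precision differed between these classes, with a median standard error of 0.36 under 1 CPM, 0.21 from 1 to 10 CPM, 0.12 in both classes from 10 to 1000 CPM and 0.17 above that. Genes under 1 CPM had to pass a filter on low counts, so a gene high in 1 group was more likely to be among them.

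Part of this trend came with Co replicate 8. Without it the median log2 fold change was 0.07 under 1 CPM, 0.03 from 1 to 10 CPM, -0.03 from 10 to 100 CPM, -0.02 from 100 to 1000 CPM and -0.15 at 1000 CPM or more. Of the 93 most abundant genes, 27 (29%) were then lower at an unadjusted p under 0.05 and 1 higher. With library totals in place of TMM factors the medians all rose, to 0.26, 0.19, 0.09, 0.07 and -0.08 in rising order of abundance. The signs of the classes from 10 to 1000 CPM turned. The order of the classes was as before, which a rescaling of whole libraries could hardly change, so it is no separate support for the trend. A median of these classes is thus best read relative to the median of all genes under the same scaling, which was 0.01 with TMM factors and 0.12 with library totals.

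**Figure D3:**
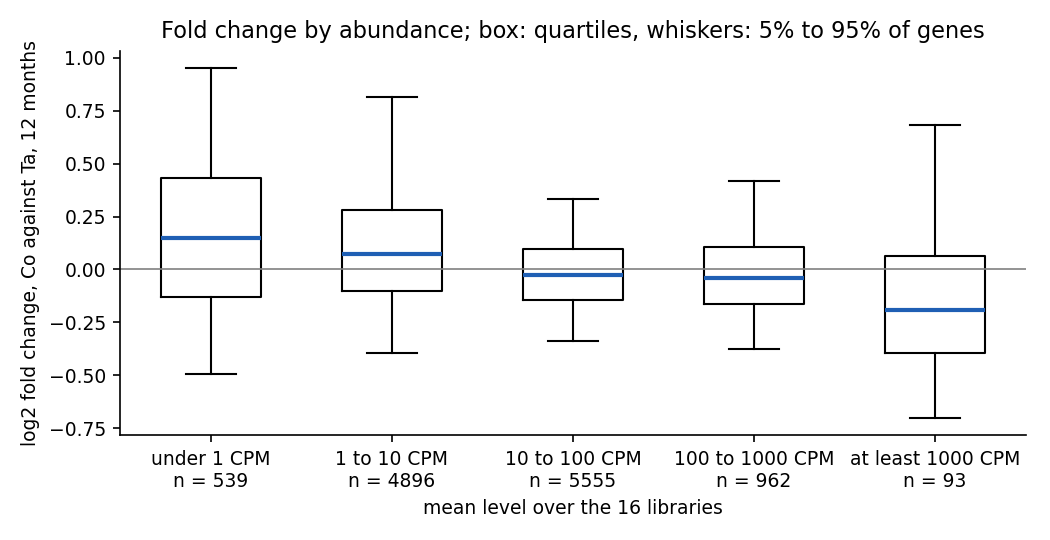
Log2 fold change of Co against Ta at 12 months (vertical axis) for genes in 5 classes of mean CPM (horizontal axis, with the number of genes), as boxes of the quartiles with a line at the median and whiskers from the 5th to the 95th percentile of genes. The medians run from 0.15 in the least abundant class to -0.19 in the most abundant.

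The direction of the differences at 12 months was compared with the earlier times, which share no library with the 12-month groups. Of the genes higher with Co at 12 months at an unadjusted p under 0.05, 69.3% were higher with Co at 1 month, 69.9% at 3 months and 77.5% at 6 months. Of the genes lower at 12 months, 69.6%, 80.7% and 77.3% were lower at those times. The share of all genes tested at both times that was higher with Co was 48.6% at 1 month, 45.7% at 3 months and 51.0% at 6 months. Over all genes tested at both times the share with the same direction was 56.6%, 59.8% and 61.6%, and Spearman's rho of the log2 fold changes, across genes, was 0.24 over 11905 genes, 0.28 over 11876 and 0.36 over 11832. Genes are not independent replicates and share their libraries, so these shares and correlations are descriptions. They use all 8 Co libraries and were not computed without replicate 8. The deviation of that library from the other Co libraries had a Spearman's rho of 0.48 with the 3-month log2 fold change. The nearest match in direction over all genes was with 6 months, a time at which no gene passed the adjusted test.

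The 3-month cobalt response was followed to 12 months through the 767 genes (6.17% of 12429) that were higher with Co at 3 months at an adjusted p under 0.05, a list chosen on the 3-month libraries. The mean log2 CPM of these genes at 3 months was 3.29 ± 1.54 in Co and 1.34 ± 0.33 in Ta muscle (n = 8 and 8, SD), by choice of the list. The 3-month Co libraries lay apart from each other, with replicates 2, 3, 6 and 8 from 4.09 to 5.05 and replicates 1, 4, 5 and 7 from 1.59 to 2.08, next to a highest Ta library of 1.86. Same-numbered Co and Ta libraries deviated together at 3 months, and the 1 gene called under the block was higher with Co and is one of the 767. The list is therefore used as a description only. At 12 months it was 1.20 ± 0.53 in Co and 0.88 ± 0.18 in Ta muscle (n = 8 and 8, SD). The Co libraries ran from 0.69 to 2.35 with a median of 1.1, and the Ta libraries from 0.56 to 1.09 with a median of 0.86. The highest Co value belonged to replicate 8, and the other 7 ran from 0.69 to 1.42, overlapping the Ta libraries. Without replicate 8 the Co mean was 1.04 ± 0.28 (SD, n = 7). Muscle with P was at 1.28 ± 0.19 and with DU at 1.33 ± 0.36 at 12 months (SD, n = 8 each), both means above that of Co. Ta itself was at 1.35 ± 0.25 at 1 month (SD, n = 7) and 1.20 ± 0.22 at 6 months (SD, n = 8), so the 12-month Ta mean was the lowest of the 19 group means for this list.

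Gene by gene, most of the list was higher with Co than with Ta at 12 months, when Ta had the lowest mean of the 19 groups. This was not computed for P or DU. Of the 767 genes, 617 (80.4%) had a higher mean log2 CPM with Co at 12 months, with a median difference of 0.27, where all 12429 genes tested at 3 months had 50.8% higher and a median of 0.00492. The median difference of the list had been 1.67 at 3 months. Without Co replicate 8 the count was 512 (66.8%) with a median of 0.13. Over 2-fold higher were 45 of the 767 (5.87%), and 14 (1.83%) without replicate 8, beside 1.68% and 1.45% of all genes. Of the 34 genes (0.274%) lower with Co at 3 months, 4 were higher at 12 months and the median difference was -0.19, and 10 were higher with a median of -0.15 without replicate 8.

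**Figure D4:**
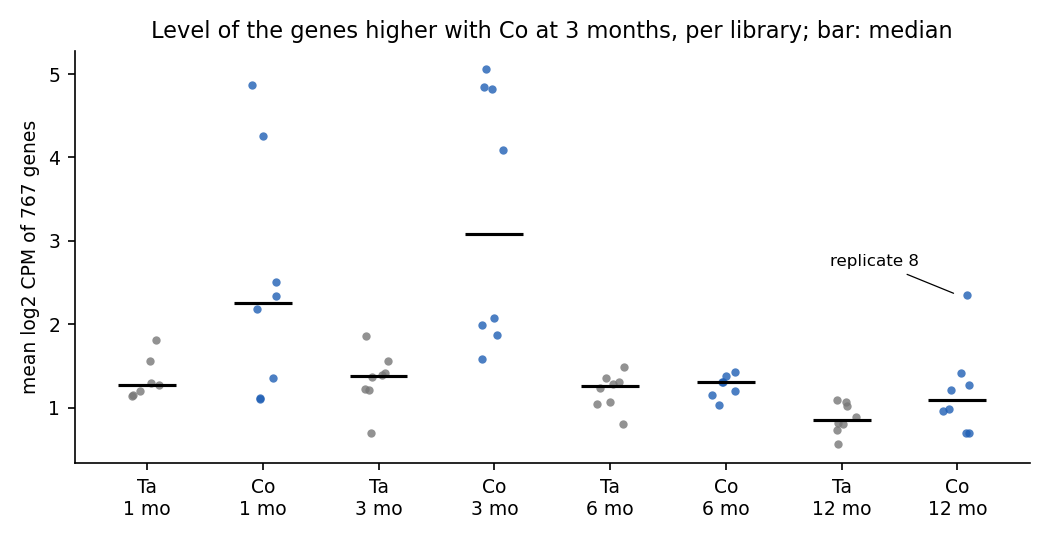
Mean log2 CPM of the 767 genes (vertical axis) in each Ta and Co library at 1, 3, 6 and 12 months, with a bar at the group median. At 12 months Co replicate 8 lies at 2.35, while the other 7 Co libraries lie between 0.69 and 1.42, over the Ta range of 0.56 to 1.09.

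Replicate 8 of Co held a set of transcripts at levels seen in no other of the 16 libraries. In it, 183 genes were at 1 CPM or more and over 4-fold above each of the other 15 libraries. The other 15 libraries had 0 to 11 such genes, the highest count being that of Ta replicate 1. The rule chose these genes in replicate 8, so their height there is a description. They had a median of 5.42 CPM and a highest value of 554 CPM in replicate 8, with 118 genes from 1 to 10 CPM, 58 from 10 to 100 CPM and 7 above 100 CPM. Their sum was 4048 CPM there, against a median of 315 CPM over the other 7 Co libraries. Asking for 2-fold in place of 4-fold gave 638 genes, and 8-fold gave 44.

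The same 183 genes were read in the libraries of earlier times, which took no part in choosing them. At 3 months 94 of the 183 passed the filter on low counts, which a gene could pass through the Co libraries alone. Of these 94, 43 were among the 767 genes called higher with Co at 3 months, beside 6.17% of all 12429 genes tested. The 43 were 23.5% of the 183 and 5.61% of the 767. In single libraries, 147 of the 183 were at or above 1 CPM in replicate 2 of Co at 3 months, 145 in replicate 8 and 142 in replicate 6, and 145 and 143 in replicates 1 and 3 of Co at 1 month. The sum of the 183 genes in those 5 libraries was 4228, 4170, 4289, 4103 and 4391 CPM, beside the 4048 CPM of the 12-month library. These 5 were the highest of the 16 Co libraries at 1 and 3 months, and the other 11 had sums of 490 to 1884 CPM and 59 to 129 of the genes at 1 CPM. A sum of this size was not limited to cobalt, since a DU library reached 19080 CPM at 3 months (replicate 2, with 65 genes at 1 CPM) and another 9428 CPM at 12 months (replicate 6, with 70). Among the 119 libraries of the other metals, 33 to 113 of the 183 genes were at or above 1 CPM. These include the Ta libraries at 12 months, which the rule used, and the 33 belongs to Ta replicate 4 of that time. In the other 7 Co libraries at 12 months, 35 to 70 of the 183 genes reached 1 CPM. The rule required the genes to be lower in these Co and Ta libraries, so their low counts follow from the choice. The deviation of replicate 8 from the median of the other Co libraries was also set against the 3-month log2 fold change over 11876 genes. Spearman's rho, across genes, was 0.48 for replicate 8, -0.21 to 0.13 for the other Co libraries and -0.14 to 0.18 for the Ta libraries. What sets this library apart was not tested.

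**Figure D5:**
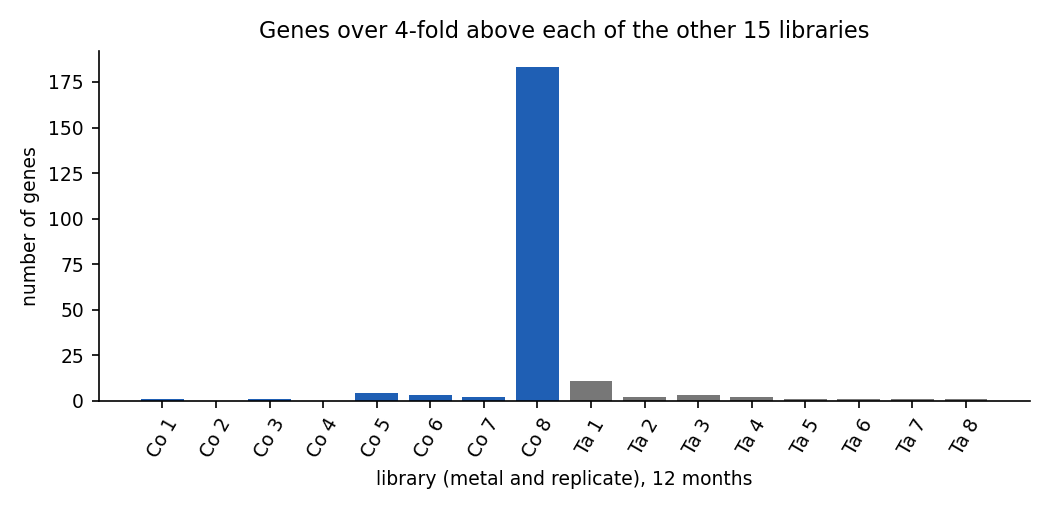
Number of genes at 1 CPM or more and over 4-fold above each of the other 15 libraries (vertical axis), for each Co and Ta library at 12 months. Co replicate 8 has 183 such genes, and no other library has more than 11.

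The spread between libraries was larger with cobalt than with tantalum through the same library. The median SD of log2 CPM over 12045 genes was 0.314 with Co and 0.282 with Ta, and 60% of the genes varied more with Co. Without replicate 8 the median SD of Co was 0.284, and 50.3% of the genes varied more with Co than with Ta. P had a median SD of 0.298 and DU of 0.499.

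Whether the cobalt difference at 12 months differed from that at 3 months was tested directly, with an interaction term over the 32 Co and Ta libraries of both times. Of 13069 genes, 2085 (16%) had an unadjusted p under 0.05 and 158 (1.21%) passed the edgeR adjusted test, of which 154 (1.18%) had a lower cobalt difference at 12 months than at 3 months and 4 (0.0306%) a higher one. For the 154 genes, the median over genes of the mean level was 24.6 CPM with Co and 1.97 CPM with Ta at 3 months, and 1.75 CPM with Co and 1.58 CPM with Ta at 12 months. The median log2 difference between Co and Ta in these genes was 2.40 at 3 months and -0.04 at 12 months, with 68 of the 154 higher with Co at the later time (52 and a median of -0.13 without Co replicate 8). The genes were selected by this contrast, so these values describe it. The call count and its direction depended on the fit. With limma voom 4 genes were called, 2 in each direction, and 50.5% of its genes at an unadjusted p under 0.05 had a higher difference at 12 months, against 30.6% with edgeR. With the replicate number as a block at 3 months, where same-numbered libraries deviated together, edgeR called 14 genes (13 lower, 1 higher) and the share was 47.6%. Single libraries moved the edgeR count as well. The count was 38, 46 and 40 without replicate 2, 6 or 8 of Co at 3 months, and 422, 498, 468 and 438 without replicate 1, 4, 5 or 7. It was 342 without replicate 8 of Co at 12 months, 100 without replicate 7 and 104 without replicate 2, and 98 without Ta replicate 6 at 12 months and 103 without Ta replicate 2 at 3 months.

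The 2 genes with the smallest p for a lower cobalt difference at 12 months had overlapping Co and Ta levels at that time. ENSRNOG00000048402 ran from 19.9 to 11322 CPM with Co at 3 months with a median of 1497, and from 0.0495 to 1.1 CPM with Ta. At 12 months the same gene ran from 0.0666 to 2.66 CPM with Co, with a median of 0.38, and from 0.11 to 1.70 CPM with Ta, with a median of 0.725. Its interaction estimate was -13.01 ± 1.47 on the log2 scale (SE, n = 8 in each of the 4 groups, edgeR adjusted p = 6.38e-06). ENSRNOG00000049829 ran from 22.8 to 8747 CPM with Co at 3 months and from 0.545 to 11.8 CPM at 12 months, where Ta ran from 0.935 to 10.2 CPM. Its interaction estimate was -11.08 ± 1.37 (SE, n = 8 in each of the 4 groups, edgeR adjusted p = 2.15e-05). Both genes kept their direction and stayed under an adjusted p of 0.05 in 40 other fits, the blocked ones included. Co replicate 8, the library that stood apart at 12 months, was at 0.466 CPM for ENSRNOG00000048402 and 2.16 CPM for ENSRNOG00000049829, within the range of the other Co libraries.

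Of the 4 genes whose cobalt difference was higher at 12 months, 2 are described. For ENSRNOG00000059215 the Co and Ta means were 14.7 ± 2.84 and 23.2 ± 8.26 CPM at 3 months and 23.4 ± 5.95 and 17.3 ± 3.63 CPM at 12 months (n = 8 each, SD). The interaction estimate was 1.1 ± 0.26 (SE, edgeR adjusted p = 0.0270), and the groups overlapped at both times. For ENSRNOG00000051252 they were 0.666 ± 0.238 and 0.987 ± 0.239 CPM at 3 months and 1.22 ± 0.227 and 0.627 ± 0.307 CPM at 12 months (n = 8 each, SD). The interaction estimate was 1.52 ± 0.38 (SE, edgeR adjusted p = 0.0386). In 25 of 40 other fits the latter gene did not pass, with adjusted p-values up to 0.154, and the former did not pass in 7. Neither passed with the replicate number as a block at 3 months (edgeR adjusted p = 0.0869 for ENSRNOG00000059215 and 0.0866 for ENSRNOG00000051252).

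Cobalt was then set against the other metals at 12 months, which asks whether muscle with Co differed from muscle with another metal. These comparisons share the 8 Co libraries with the one against Ta. Against P, 7 of 12240 genes (0.0572%) passed the edgeR adjusted test, 6 higher (0.049%) and 1 lower (0.00817%) with Co, and 1093 (8.93%) had an unadjusted p under 0.05. All 8 Co libraries lay above all 8 P libraries in 10 genes (0.0817%) and below them in 3 (0.0245%). Leaving out 1 library at a time gave 0 to 23 calls, with 23 without Co replicate 8, 15 without Co replicate 5, 14 without P replicate 2 and 1 without P replicate 5. No call was left without Co replicate 2, 3, 6 or 7 or without P replicate 1, 3, 4, 6, 7 or 8.

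ENSRNOG00000007407 was higher with Co than with P, from 19.6 to 39.3 CPM with a median of 27.4 against 12.3 to 18.7 CPM with a median of 16.5. All 8 Co libraries lay above all 8 P libraries, and the log2 fold change was 0.81 ± 0.14 (SE, adjusted p = 0.0422 by edgeR). Against Ta its log2 fold change was 0.40 ± 0.16 (edgeR adjusted p = 0.292). ENSRNOG00000038864 was also higher, from 0.955 to 3.22 CPM with a median of 2.27 against 0.431 to 0.932 CPM with a median of 0.634, with a log2 fold change of 1.59 ± 0.27 and no overlap (SE, adjusted p = 0.0422 by edgeR). Against Ta this gene had 1.11 ± 0.34 (edgeR adjusted p = 0.231).

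The 1 gene lower with Co than with P, ENSRNOG00000030351, ran from 9.65 to 13.9 CPM with a median of 12.0 against 14.4 to 21.8 CPM with a median of 18.2. Its log2 fold change was -0.66 ± 0.12 (SE, edgeR adjusted p = 0.0422), and the groups did not overlap. The difference from Ta was of like size at -0.57 ± 0.12 without passing the test (edgeR adjusted p = 0.147), with Ta libraries from 13.7 to 24.2 CPM. ENSRNOG00000003221 did not pass against P, at -1.70 ± 0.31 (edgeR adjusted p = 0.0555), with Co from 6.82 to 29.4 CPM and P from 27.4 to 80.1 CPM. It passed with DESeq2 (adjusted p = 0.000125), limma voom (0.00843) and edgeR without Co replicate 5 (0.0215). The Co and Ta means of this gene were 13 ± 7.38 and 11.8 ± 5.94 CPM (n = 8 each, SD), with a log2 fold change of 0.15 ± 0.34, and the groups overlapped.

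Against DU, 0 of 12244 genes passed the edgeR adjusted test, and 1017 (8.31%) had an unadjusted p under 0.05, 367 (3%) higher and 650 (5.31%) lower with Co. This balance rested on 1 library and on the fit: 36.1% of these genes were higher with Co here, 59.5% (520 of 874) without DU replicate 6 and 54.6% with limma voom. DESeq2 called 6 genes, limma voom with sample quality weights 1, and edgeR with all 150 libraries in 1 model 476. The lowest adjusted p was 0.594. A pair of DU libraries stood apart, with median correlations of 0.891 and 0.770 to the rest of their group. Among the genes of smallest p, the Co and DU means were 1.73 ± 0.472 and 0.871 ± 0.221 CPM for ENSRNOG00000012686 and 1.59 ± 0.85 and 0.429 ± 0.28 CPM for ENSRNOG00000061326 (n = 8 each, SD). Their log2 fold changes were 0.97 ± 0.23 and 1.89 ± 0.46. In the other direction, they were 8.14 ± 2.56 and 15.8 ± 4.53 CPM for ENSRNOG00000007393 and 0.730 ± 0.439 and 2.09 ± 0.59 CPM for ENSRNOG00000046652 (n = 8 each, SD). Their log2 fold changes were -0.96 ± 0.21 and -1.51 ± 0.33, and none of these 4 genes passed the edgeR adjusted test. ENSRNOG00000007393 passed with DESeq2 (adjusted p = 0.0370) and limma voom (0.0473), and ENSRNOG00000046652 with DESeq2 (0.0159) and with all 150 libraries in 1 edgeR model (0.0175).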

How the data were processed

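The authors deposited raw read counts per gene for 150 libraries, as whole numbers without normalization. Per the submitters' processing notes, HISAT2 2.0.5, featureCounts 1.5.0-p3 and the build Rnor_6.0 were used. The annotation and strand setting are not given in the sources used here. Reads may therefore be shared between overlapping or antisense genes and between near-identical copies. Per the labels' protocols, libraries came from a stranded total RNA kit. The labels name no sequencing batch.

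Each comparison used its own groups, with filterByExpr, TMM factors, robust dispersions, glmQLFit(robust=TRUE) and glmQLFTest of edgeR 4.0.16 (R 4.3.3), Benjamini-Hochberg adjustment over all genes tested and a threshold of 0.05. Standard errors are the log2 fold change over the square root of F. TMM factors of all libraries together scaled the CPM, whose logarithm was taken with a prior count of 2. Counts of genes at or above 1 CPM per library used plain totals. The test was also run on simulated counts, which held no outlying library and no pairing of libraries. The outcome is not given here. Alternatives used DESeq2 1.42.0 and limma 3.58.1.

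None of 32545 identifiers was paired with a name (the reference table is of assembly GRCr8), so 39 gene lists were not tested, and the rule for named genes fell back to at most 2 identifiers in each direction per comparison: those of smallest p with a group mean of 1 CPM or more and with 6 or more of 8 Co libraries beyond the other group's median. Sequences are not shown for the same reason. The members and lists were chosen with earlier results of these data known. No 2 libraries of a group matched within sampling noise (lowest chi-square per degree of freedom 12.0). Same-numbered Co and Ta libraries at 3 months deviated together (8 of 8 correlations over 0.1, from 0.117 to 0.464), a pairing taken from the data and not from the labels.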

Additional observations from a re-analysis of the deposited data

Results flagged for a closer look

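In groups of 4 to 10 libraries, a highest or lowest value that stands far from its neighbour was looked for in 46 groups of 8, and 11 were found. Chance alone marks a share of about 0.05 of such groups where values are independent and normally distributed. Most values here are CPM of genes picked by their contrasts, from libraries shared between groups. The share of 0.05 therefore does not apply to them, and no excess is read from the 11. Co replicate 8 at 12 months stood apart in its mean log2 CPM of the 767 genes (2.35), in its median correlation with the other Co libraries (0.921) and in its level of ENSRNOG00000007393 (14.2 CPM, against at most 8.84 CPM in the other Co libraries). Co replicate 6 at 12 months was the highest of its group for ENSRNOG00000048402 (2.66 CPM) and ENSRNOG00000049829 (11.8 CPM), the same 2 genes for which Co replicate 8 at 3 months was highest, at 11322 and 8747 CPM. Single high or low libraries were also Co replicate 5 for ENSRNOG00000003221 (29.4 CPM), P replicate 8 for ENSRNOG00000007407 (12.3 CPM) and DU replicate 4 for ENSRNOG00000046652 (3.41 CPM), all at 12 months, and Ta replicate 2 at 3 months for ENSRNOG00000059215 (41.4 CPM).

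The cobalt difference at 12 months differed from that at 3 months in 158 genes by the edgeR interaction test. The described genes had interaction estimates of 1.1 (ENSRNOG00000059215), 1.52 (ENSRNOG00000051252), -13.01 (ENSRNOG00000048402) and -11.08 (ENSRNOG00000049829) on the log2 scale.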

How the results depend on the processing

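The directions of the 16 described genes were the same in every fit run, and the counts of calls were not stable. For Co against Ta at 12 months the 1 call of edgeR became 2 with no filter on low counts, 127 with DESeq2, 166 with limma voom and sample quality weights and 24 (23 higher, 1 lower, the called gene not among them) with all 150 libraries in 1 model. It was 1 with DESeq2's size factors and 1, a different gene, with library totals. Leaving out 1 library at a time gave 0 to 14. For Co against P the 7 calls became 101 with DESeq2, 88 with limma voom, 16 with all libraries and 19 with library totals, and 0 to 23 with 1 library left out. For Co against DU the count of 0 became 6 with DESeq2, 1 with limma voom and 476 with all libraries, and was 0 in every fit with 1 library left out. For the interaction the 158 calls became 465 with DESeq2, 4 with limma voom, 820 with all libraries and 320 with library totals, and 38 to 498 with 1 library left out. With library totals the median log2 fold changes of genes from 10 to 100 CPM and from 100 to 1000 CPM changed sign, to 0.0892 and 0.0694. The cause of these changes was not tested. Library totals, leaving out libraries of the comparisons other than Co against Ta, the classes without Co replicate 8 and the 2-fold and 8-fold bounds were chosen after seeing the data.

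With the replicate number as a block, calls were 3 for Co against Ta, 1 for Co against P, 0 for Co against DU and 6, all lower, for the interaction. The call against P was ENSRNOG00000003221 (edgeR adjusted p = 0.0361) and none of the 7, of which ENSRNOG00000007407, ENSRNOG00000038864 and ENSRNOG00000030351 were at 0.0897, 0.214 and 0.140. For Co against DU 65.5% of genes at an unadjusted p under 0.05 were higher with Co under the block. Same-numbered libraries did not all deviate together at 12 months. Correlations of their deviations ran from -0.105 to 0.182 for Co and Ta (2 of 8 over 0.1), from -0.201 to 0.188 for Co and P (3 of 8) and from -0.379 to 0.123 for Co and DU (1 of 8), and 0, 2 and 0 of 8 Co libraries correlated best with their own number. These libraries share only a number. Between 3 and 12 months they ran from -0.398 to 0.498 for Co (3 of 8 over 0.1) and from -0.361 to 0.330 for Ta (4 of 8). For Co and Ta at 3 months all 8 were over 0.1 (0.117 to 0.464), and 5 of 8 Co libraries correlated best with their own number. A block at 3 months only, added after seeing the data, gave 14 calls for the interaction. At totals of 14242417 to 18169055 counts a gene under 1 CPM had a median standard error of 0.36 on the log2 scale. For a gene with that standard error, a difference of 0.36 lies well short of an unadjusted p of 0.05.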
